A study of Solanum lycopersicum with 9 samples.

Results

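Red ripe fruit of the Asr1 antisense line AS5 was compared with fruit of wild-type (WT) plants, on the 3 arrays labelled AS5 and the 3 labelled WT among the 9 arrays of the series. Both groups were tomato of the cultivar Money Maker (labelled cv Money Maker), raised under the same greenhouse regime of light and humidity. They differ by an antisense construct against Asr1, which the WT plants do not carry. Each array measured total RNA from a pool of mesocarp, the fleshy middle layer of the fruit wall, of 2 fruits, with 3 pools per group. The pools came from different plants of a line, so n counts pools. AS5 is 1 transgenic line, and the sources used here do not give the promoter that drives its construct. The other silenced line, AS17, also with 3 pools, was used to show what was seen in AS5 and not there. Its arrays also entered the estimate of the spread on which every adjusted p rests.

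ASR proteins are small, very hydrophilic plant proteins named for abscisic acid, stress and ripening. They are known to bind DNA and to protect other proteins like chaperones, and tomato Asr1 is abundant in ripening fruit. Abscisic acid and ethylene are the hormones that bring tomato fruit to ripeness, a stage at which carotenoids accumulate, cell walls soften and hexoses are stored. The SnRK1 kinase, a complex of a catalytic subunit with regulatory partners, adjusts metabolism to the supply of sugar.

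Expression is given as the deposited log2 values, pool by pool in order of pool number, of 10038 probe sets, the groups of short DNA probes that each report 1 transcript or a set of similar ones. Of these, 909 (9.06%) carried a gene symbol in the annotation used, so most results below bear only a probe set name. No probe set was named Asr1 or after another ASR gene. Whether an unnamed probe set reports Asr1 is not known, so how far Asr1 was silenced was not analysed here. The WT and AS5 arrays showed ripe fruit: PG2, the polygalacturonase that dissolves pectin, lay between 11.80 and 12.31, and Psy1, the fruit phytoene synthase, between 11.98 and 12.13. The seed marker MAN2 was at background on all 6 of these arrays. Array medians lay between 5.26 and 5.33, except in AS5 pool 3, at 5.47. That pool stood apart from the other AS5 pools. In it, 609 probe sets lay at least 1 log2 unit from the mean of the other AS5 pools, 519 of them higher. The number was 201 and 121 for pools 1 and 2 and between 69 and 189 for the WT pools. In AS17 it was 491, 355 and 181 for pools 1, 2 and 3, so AS5 pool 3 was not the only array that stood apart. Results that rest on pool 3 are therefore given with and without it. A background level was set on each array from control probe sets for reporter genes, and it lay between 1.41 and 1.56 in WT and between 1.57 and 1.84 in AS5. The fold is given as a lower bound if no array of a group exceeded background, with the dim group set at the higher of background and its own value.

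Of the 10038 probe sets, 38 differed between AS5 and WT fruit (0.379%, Benjamini-Hochberg adjusted p under 0.05). Of these, 29 were lower in AS5 (0.289%) and 9 were higher (0.0897%). Only 4 of the 38 carried a gene symbol: LOC543645, SNF4, NP24-I and P18, all lower in AS5. Without adjustment, 928 probe sets had p under 0.05. The median difference over all probe sets was 0.03 log2, and 212 probe sets had a difference of at least 1, 141 higher and 71 lower in AS5. The counts of calls depended on single arrays and on how arrays were weighted. With array weights, which give less weight to arrays that stand apart, 200 probe sets passed, 77 higher and 123 lower. With equal weights it fell to 18 without WT pool 1, to 18 without WT pool 2, to 18 without WT pool 3, to 21 without AS5 pool 1 and to 22 without AS5 pool 2. The count was 33 without AS5 pool 3, and 15 of the 38 passed in all 9 fits that each left out 1 array.

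**Figure D1:**
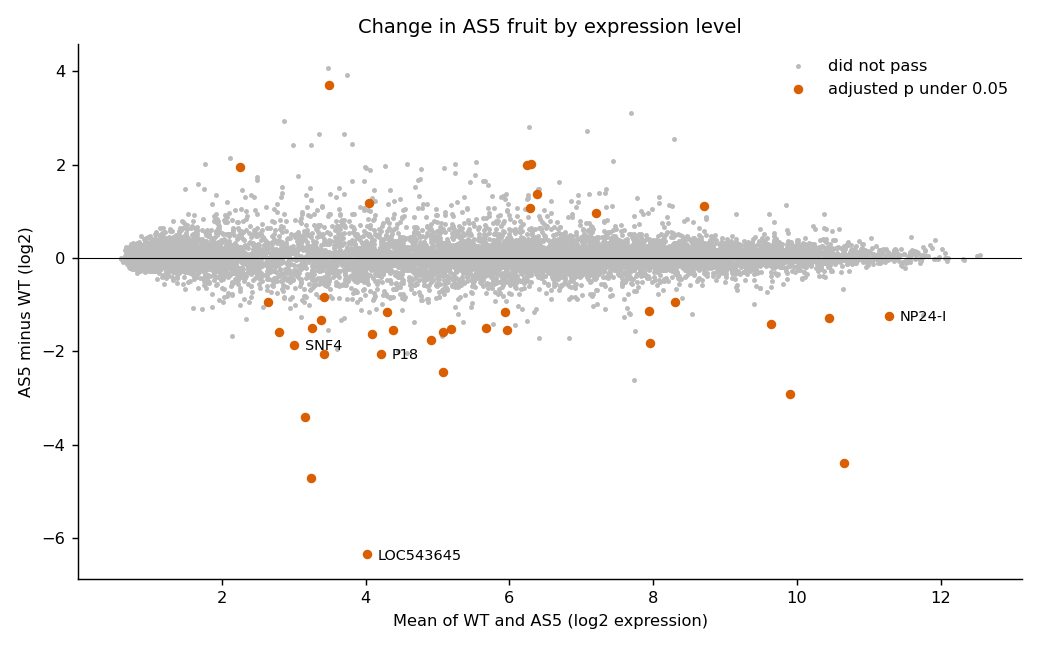
Difference between AS5 and WT (log2, vertical axis) against the mean of the WT and AS5 values (log2 expression, horizontal axis), with 1 point per probe set and the 38 that passed in colour. The widest coloured points lie below 0, down to -6.35 for LOC543645, and the 4 named ones are labelled.

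Differences are AS5 minus WT in log2 units with limma's standard error (SE) and n = 3 pools per group, unless stated otherwise. Some transcripts that WT fruit expressed were at background in AS5. LOC543645, for which the tables used give no role, read 7.204, 6.57 and 7.80 in the WT pools and 0.96, 0.76 and 0.82 in the AS5 pools. All 3 AS5 values were below background, and the transcript was at least 45.5-fold lower in AS5 (adjusted p = 6.75e-06). Les.852.1.A1_at, an unnamed probe set, read 5.78, 5.42 and 5.57 in WT and 1.03, 0.89 and 0.73 in AS5, at least 15.0-fold lower (adjusted p = 5.76e-07). Les.5468.1.S1_at, also unnamed, read 4.64, 5.03 and 4.88 in WT and 1.54, 1.38 and 1.44 in AS5, at least 8.96-fold lower (adjusted p = 7.36e-06). The WT and AS5 arrays were far apart for all 3 of these probe sets. They were at background in line AS17 as well, where LOC543645 read 0.97, 1.01 and 1.09. In a pool of tissue, fewer cells of a type and less RNA per cell cannot be told apart, for these transcripts and all others here.

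Among the brightest transcripts of WT flesh, a pair of unnamed probe sets fell in AS5 without reaching background. Les.4418.1.A1_s_at read 12.82, 12.82 and 12.88 in WT and 8.81, 8.38 and 8.18 in AS5. It was 21.0-fold lower (log2 difference -4.39 ± 0.16 SE, adjusted p = 3.55e-06). Les.4438.1.A1_s_at read 11.35, 11.42 and 11.31 in WT and 8.94, 8.46 and 7.95 in AS5, a 7.52-fold lower level (-2.91 ± 0.24 SE, adjusted p = 0.00125). The suffix of both names marks probes that match more than 1 transcript, so their signal may be shared. The next widest falls, Les.4603.1.S1_at and Les.4439.1.S1_at, were of middling level in WT. Les.4603.1.S1_at read 5.95, 6.74 and 6.19 in WT and 3.33, 4.03 and 4.20 in AS5 (-2.44 ± 0.28 SE, adjusted p = 0.00823). Les.4439.1.S1_at read 4.11, 4.99 and 4.25 in WT and 1.79, 2.65 and 2.74 in AS5 (-2.06 ± 0.31 SE, adjusted p = 0.0319), and it passed in only 1 of the 9 fits that left out an array.

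SNF4, the activating subunit of the SnRK1 kinase complex, was lower in AS5. It read 4.20, 3.76 and 3.87 in the WT pools and 1.77, 2.14 and 2.32 in the AS5 pools. The groups did not overlap, and 1 of the AS5 arrays was at background. SNF4 was 3.64-fold lower (-1.86 ± 0.18 SE, adjusted p = 0.00371) and stayed so without AS5 pool 3 (-1.98, adjusted p = 0.00583). In AS17 it read 1.47, 1.85 and 1.63, at background on all 3 arrays and at least 4.58-fold below WT (adjusted p = 0.000742). The other SnRK1 genes with a symbol did not pass: GAL83, a scaffold subunit, differed by -0.35 (adjusted p = 0.75). SNF1, the catalytic subunit, differed by 0.20 (adjusted p = 0.871) and Sip1, a protein that interacts with the complex, by 0.21 (adjusted p = 0.901). The median of these 4 genes was -0.08, against 0.03 over all probe sets.

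NP24-I, an osmotin-like pathogenesis-related protein known to respond to salt, was among the brightest genes of ripe flesh and fell in AS5. It read 12.03, 11.91 and 11.74 in WT and 10.67, 10.83 and 10.48 in AS5, with no overlap. This was 2.35-fold lower (-1.23 ± 0.16 SE, adjusted p = 0.0142), and -1.14 without AS5 pool 3 (adjusted p = 0.046). P18, a dUTPase that keeps dUTP out of newly made DNA, read 5.07, 5.66 and 4.998 in WT and 2.45, 3.37 and 3.74 in AS5. It was 4.16-fold lower (-2.06 ± 0.32 SE, adjusted p = 0.0397) and passed in 1 of the 9 fits that left out an array, the one without AS5 pool 3 (adjusted p = 0.0289).

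The 9 rises in AS5 were all of unnamed probe sets. Les.4701.1.S1_at read 2.37, 0.94 and 1.58 in WT, with 1 array at background, and 4.85, 5.77 and 5.39 in AS5 (3.71 ± 0.53 SE, adjusted p = 0.0259). Les.726.1.S1_at read 5.01, 5.77 and 5.11 in WT and 7.22, 7.18 and 7.52 in AS5 (2.01 ± 0.26 SE, adjusted p = 0.0164). These rises were wide, yet without AS5 pool 3 their adjusted p became 0.0811 and 0.0507. LesAffx.53035.1.S1_at read 5.13, 5.24 and 5.39 in WT and 7.30, 7.001 and 7.45 in AS5 (2.00 ± 0.16 SE, adjusted p = 0.00125), and it passed in all 9 fits that left out an array. LesAffx.63231.1.S1_at was at background in every WT pool (1.23, 1.29 and 1.34) and read 2.75, 3.14 and 3.81 in AS5, at least 3.35-fold higher (adjusted p = 0.0357, and 0.0627 without AS5 pool 3).

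**Figure D2:**
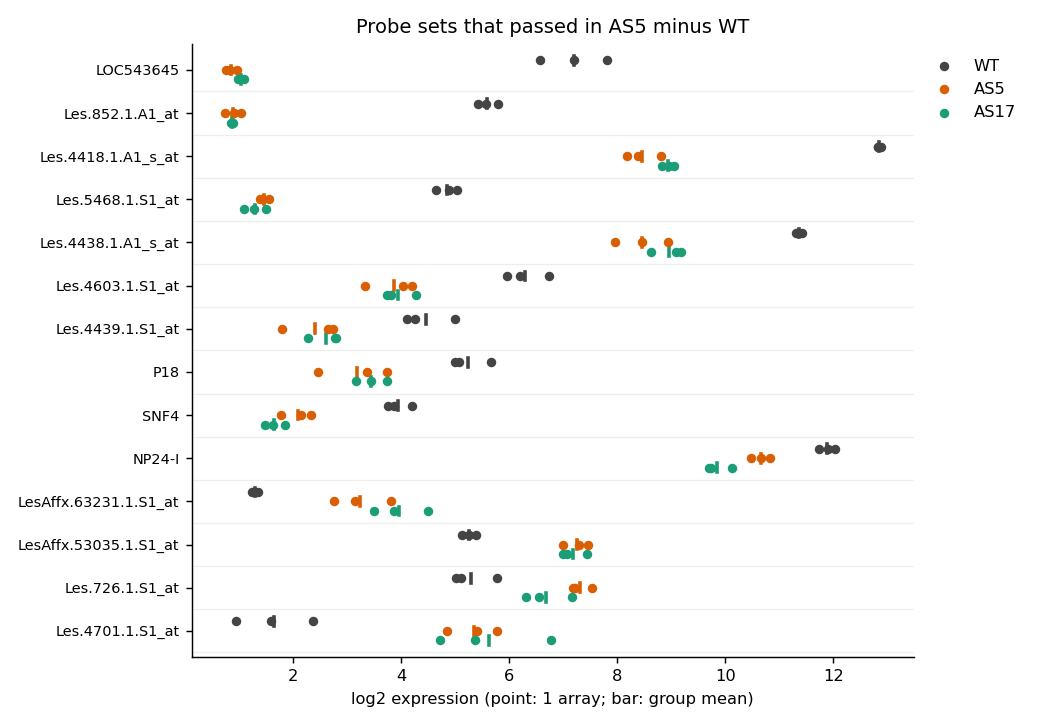
Expression (log2, horizontal axis) of the 4 named and 10 unnamed probe sets with the widest changes, with 1 point per array in WT, AS5 and AS17 and a bar at each group mean. The AS5 arrays lie apart from the WT arrays in every row.

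The 38 probe sets stood for 34 transcript clusters, since 4 clusters had 2 probe sets each that passed, in the same direction. These clusters were picked out after their values were seen. For Les.581 the probe sets rose by 1.36 and 1.17. For LesAffx.58583 the differences were -1.77 and -1.54, for Les.3209 -1.52 and -1.49, and for Les.677 -1.50 and -0.85. Probe sets of 1 cluster read the same or similar transcripts and are not independent evidence.

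Without AS5 pool 3, all 38 differences kept their direction and 26 of the 38 still passed. The 12 that no longer passed included 6 of the 9 rises, and 7 other probe sets passed only then. Leaving out another array cost more of the 38: 17 and 21 passed without AS5 pool 1 or 2, and 17, 18 and 18 without WT pool 1, 2 or 3. Pool 3 also carried high levels of defence genes that no other AS5 pool or WT pool showed, though AS17 pool 1 did for some of them; these genes were singled out after their values were seen. TSI-1, a pathogenesis-related gene, read 0.74 and 1.61 in AS5 pools 1 and 2 and 5.04 in pool 3, against 0.82, 0.97 and 0.82 in WT and 3.92, 0.45 and 1.01 in AS17. PR1b1, the basic pathogenesis-related protein P14, read 0.86 and 0.68 in AS5 pools 1 and 2 and 4.003 in pool 3, against 1.21, 1.21 and 0.94 in WT and 1.46, 0.86 and 1.21 in AS17; a second probe set of the gene, near background, read 0.83 in pool 3. PTI5, an ethylene response factor that binds promoters of defence genes, read 1.52, 2.16 and 5.34 in AS5 and at most 1.65 in WT, and in AS17 it read 5.56, 1.37 and 1.95. TBG3, a beta-galactosidase of the cell wall, went the other way, with 7.90, 7.53 and 5.47 in AS5 against 8.48, 8.51 and 7.67 in WT and 7.44, 8.31 and 7.85 in AS17. None of these genes passed between AS5 and WT (adjusted p of 0.74, 0.825, 0.779 and 0.562).

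**Figure D3:**
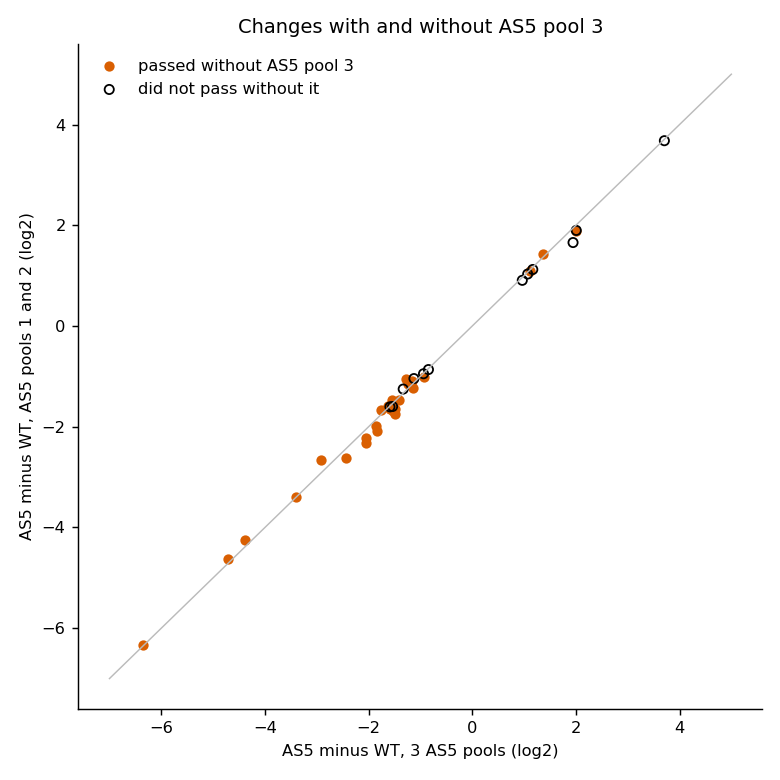
Differences between AS5 and WT for the 38 probe sets that passed, with all 3 AS5 pools (log2, horizontal axis) and with AS5 pools 1 and 2 only (log2, vertical axis). Filled points passed without pool 3 (26) and open points did not (12); all lie near the line of equality.

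The question set by the second line is what AS5 fruit showed that AS17 fruit did not. Both lines are compared with the same WT arrays, so the 2 comparisons are not independent. In AS17, 135 probe sets passed (1.34%). Of the 38 that passed in AS5, 3 did not pass in AS17 (0.0299% of all probe sets): LesAffx.66800.1.S1_at, Les.4312.2.S1_at and Les.5807.1.S1_at, all unnamed. LesAffx.66800.1.S1_at read 4.09, 4.02 and 4.02 in WT, 2.71, 2.87 and 2.55 in AS5 and 2.91, 3.71 and 3.55 in AS17. Its AS5 values were below all others (-1.33 ± 0.20 SE, adjusted p = 0.0313), and in AS17 the difference was -0.65 (adjusted p = 0.142). Les.4312.2.S1_at, a bright probe set, read 11.06, 11.01 and 11.15 in WT, 9.90, 10.17 and 9.34 in AS5 and 10.48, 10.19 and 10.36 in AS17. Its AS5 values were also the lowest (-1.27 ± 0.20 SE, adjusted p = 0.0357), against -0.74 in AS17 (adjusted p = 0.115). For both of these probe sets AS5 stayed below all other arrays after median centring, but overlapped AS17 after quantile normalisation. Les.5807.1.S1_at read 6.65, 6.77 and 6.75 in WT, 7.56, 7.70 and 7.81 in AS5 and 7.72, 7.18 and 7.41 in AS17. Here the lines overlapped, with a rise of 0.97 ± 0.15 SE in AS5 (adjusted p = 0.0353) and 0.71 in AS17 (adjusted p = 0.0595).

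When AS5 was tested directly against AS17, none of the 3 passed (adjusted p of 0.776, 0.807 and 0.85), so a difference between the lines was not shown for them. Over all probe sets, 0 of 10038 passed in AS5 against AS17 by limma (0%), while 591 (5.89%) had an unadjusted p under 0.05 and the smallest adjusted p was 0.0936. The count of 3 was itself unsteady: it was 81 (40 higher, 41 lower) with array weights, and it was 9, 5 and 14 when AS17 pool 1, 2 or 3 was left out, 1 and 5 without AS5 pool 1 or 2, 2 without AS5 pool 3, and 3, 4 and 2 without WT pool 1, 2 or 3. Without AS5 pool 3, the adjusted p in AS5 was 0.102 for LesAffx.66800.1.S1_at, 0.0302 for Les.4312.2.S1_at and 0.11 for Les.5807.1.S1_at.

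In a test of AS5 against the mean of WT and AS17, 5 probe sets passed (0.0498%), all lower in AS5: LOC543645, Les.4418.1.A1_s_at, Les.4438.1.A1_s_at, Les.5468.1.S1_at and Les.852.1.A1_at. These are the widest falls described above. Each was also far below WT in AS17, so the test picked up their distance from WT and showed no gene in which AS5 stood alone. The smallest adjusted p between the lines belonged to Les.4876.1.S1_at, a fall that was smaller in AS5: it read 8.68, 8.98 and 8.65 in WT, 7.79, 7.73 and 7.96 in AS5 and 6.76, 6.50 and 6.48 in AS17. AS5 was 1.25 ± 0.14 SE above AS17 (adjusted p = 0.0936), with no overlap among the 3 groups. NP24-I had the same order, at 10.13, 9.70 and 9.73 in AS17, and AS5 was 0.81 ± 0.16 SE above AS17 (adjusted p = 0.585).

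A wider look took every probe set whose 3 AS5 values all lay above, or all below, the 6 other arrays. There were 134 above (1.33%) and 26 below (0.259%). This balance reversed with the scaling: 64 lay above and 72 below after median centring, and 75 and 86 after quantile normalisation. The gap to the nearest other array was small, with a median of 0.05 log2 above, and the widest were 0.57 above, for LesAffx.1861.4.S1_at, and 0.48 below, for Les.5523.1.S1_at. LesAffx.1861.4.S1_at, chosen after its values were seen, read 2.59, 2.43 and 2.50 in AS5 against 1.54, 1.39 and 1.87 in WT and 1.87, 1.49 and 1.31 in AS17. Its difference from WT was 0.91 (adjusted p = 0.0977). Les.5523.1.S1_at, chosen in the same way, read 6.89, 6.196 and 6.85 in AS5 against 7.54, 7.63 and 7.86 in WT and 7.37, 7.67 and 7.53 in AS17. Its difference from WT was -1.03 (adjusted p = 0.0977).

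Named genes in this set had small differences, and LOC543645 was the only one of those given here that passed. AREB1, a bZIP factor that binds abscisic acid response elements in promoters, read 4.66, 4.58 and 4.69 in AS5, above 4.42, 4.33 and 4.33 in WT and 4.07, 3.85 and 3.66 in AS17. It was 0.29 ± 0.12 SE above WT (adjusted p = 0.529) and 0.79 ± 0.12 SE above AS17 (adjusted p = 0.478), and AS5 lay above all others under both other scalings. AREB1 was among 12 probe sets with AS5 above every WT array and AS17 below every WT array, while 0 had the reverse order. That imbalance did not hold under the other scalings, where 6 probe sets had this order and 8 the reverse after median centring, and 4 and 6 after quantile normalisation. EXPA6, an expansin of the kind that loosens cell walls, read 1.902, 1.68 and 1.57 in AS5, below 2.19, 2.63 and 2.58 in WT and 2.19, 2.52 and 2.60 in AS17. Its difference from WT was -0.75 ± 0.17 SE (adjusted p = 0.156). Its AS5 levels were near background, with 1 array at it, and a second probe set of the gene differed by -0.03. SODCP.2, a copper/zinc superoxide dismutase, read 5.33, 5.997 and 5.17 in AS5 against 6.02, 6.85 and 6.08 in WT and 6.16, 6.66 and 6.98 in AS17 (-0.82, adjusted p = 0.461). EXPA6 stayed below all other arrays under both other scalings, and SODCP.2 only under quantile normalisation. ETR1, an ethylene receptor, CIP4 and t19-8 also lay above all other arrays, with differences from WT of 0.10, 0.13 and 0.20, but under neither other scaling. ACI36 lay below all others (-0.27) under every scaling.

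Heat shock genes, whose products keep other proteins folded, were frequent among these genes. In 5 of 7 such genes all AS5 arrays lay above the 6 others, against 1.33% of all probe sets, but 0 of 7 passed the test. MTSHP, the mitochondrial small heat shock protein, read 10.51, 10.66 and 10.93 in AS5 against 10.08, 10.31 and 9.78 in WT and 10.37, 10.33 and 9.52 in AS17 (0.64, adjusted p = 0.461). HSP21, its counterpart in plastids, read 10.36, 10.31 and 11.67 in AS5 against 10.26, 10.13 and 10.18 in WT and 9.03, 10.12 and 9.80 in AS17. Its difference from WT was 0.59 with pool 3 and 0.14 without it. Hsp90-1 (0.20), ER21 (0.14) and HSP17-6 (0.09) were the other three. The count fell to 2 of 7 after median centring (MTSHP and HSP21) and to 2 of 7 after quantile normalisation (MTSHP and Hsp90-1). The list was drawn up with earlier results of these arrays known, and the median of its 7 genes was 0.20 with pool 3 and 0.18 without it.

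**Figure D4:**
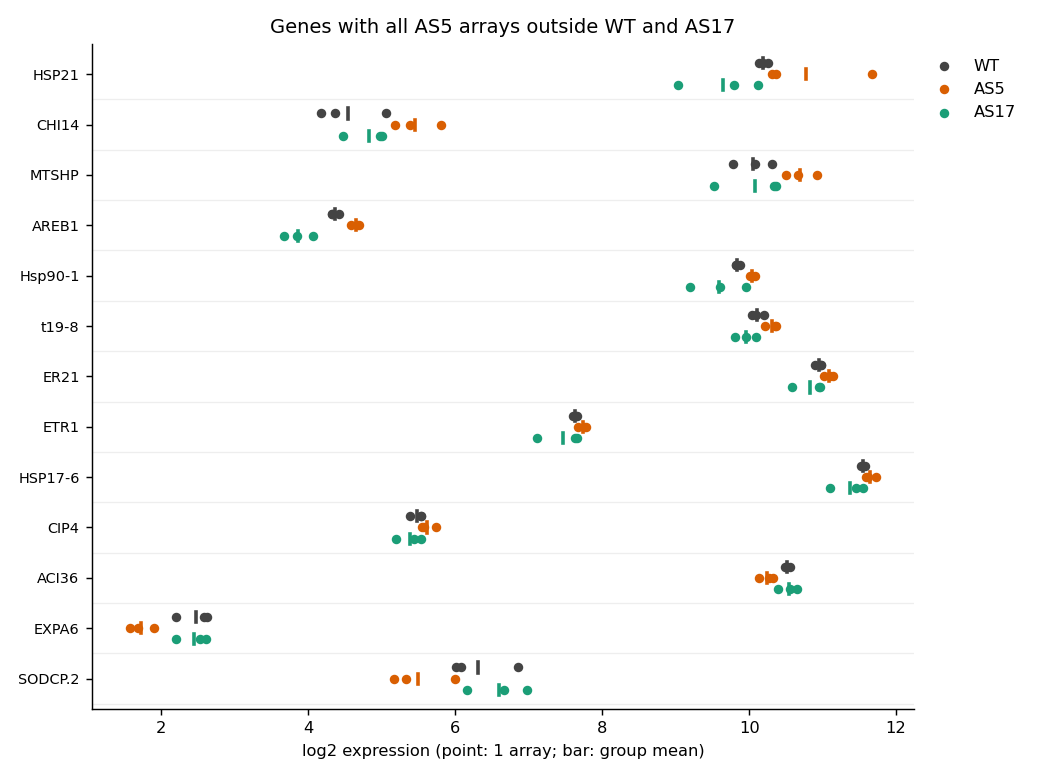
Expression (log2, horizontal axis) of 13 named genes above background whose 3 AS5 arrays all lay above, or all below, the WT and AS17 arrays, with 1 point per array and a bar at each group mean. The distances are small for most genes, and AREB1 and HSP21 have AS17 on the other side of WT.

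Genes of known pathways are described next by whether the AS5 arrays overlapped the WT arrays, because few of them passed the test. All 3 AS5 arrays lay above all 3 WT arrays for 1004 probe sets (10%) and below them for 696 (6.93%). These shares depended on the scaling, with 915 above and 802 below after median centring and 823 and 1034 after quantile normalisation. Members named here because their arrays did not overlap were chosen after their values were seen. Some list members were at background on all WT and AS5 arrays, yet they count in the list totals and medians. The largest such numbers were 11 of 43 cell wall genes, 5 of 14 ethylene synthesis genes, 5 of 21 pathogenesis-related and wound proteins and 4 of 22 genes of sucrose, hexose and starch metabolism.

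In abscisic acid synthesis and response, 0 of 7 genes passed, 4 lay above WT and 1 below, and the median was 0.29 against 0.03 over all probe sets. NCED1, which makes the first committed precursor of abscisic acid, read 6.75, 6.62 and 7.40 in WT and 7.78, 7.79 and 7.52 in AS5 (0.78 ± 0.21 SE, adjusted p = 0.265). After median centring NCED1 overlapped WT, and 3 genes of the list lay above WT. TAS14, a dehydrin made in response to abscisic acid, read 2.38, 2.45 and 2.196 in WT and 3.58, 2.69 and 3.06 in AS5 (0.77, adjusted p = 0.608). FLACCA, the sulfurase of the molybdenum cofactor needed for the last step of the hormone's synthesis, was the gene below WT. It read 6.05, 6.07 and 5.72 in WT and 5.47, 5.63 and 5.62 in AS5 (-0.38, adjusted p = 0.578), and 4.88, 4.81 and 4.28 in AS17. AREB1, given above, and LE16, a lipid transfer protein near background, also lay above WT.

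Of 15 genes of carotenoid and isoprenoid synthesis, 0 passed, 0 lay above WT and 4 lay below (median -0.09). FPPS1, the farnesyl diphosphate synthase that supplies sterols and other isoprenoids, came nearest to passing. It read 8.47, 8.01 and 9.09 in WT and 7.15, 6.72 and 7.02 in AS5 (-1.56 ± 0.28 SE, adjusted p = 0.0798, and 0.155 without AS5 pool 3). PSY2, a second phytoene synthase, read 4.96, 5.14 and 5.14 in WT and 4.69, 4.51 and 4.66 in AS5 (-0.46, adjusted p = 0.295). In AS17 both FPPS1 (-1.48, adjusted p = 0.0444) and PSY2 (-0.76, adjusted p = 0.036) passed against WT. The other two were PDS, phytoene desaturase (-0.48), and CCD1A, a carotenoid cleavage enzyme (-0.47), while Psy1 differed by -0.06. The probe sets of Psy1 disagreed: the brightest, given here, and another (-0.07) were level with WT, while Les.44.1.S1_at, singled out after its values were seen, was dim in WT at 1.40, 2.37 and 1.55 and read 5.16, 5.02 and 6.90 in AS5. This difference of 3.92 was among the widest of the comparison, without overlap, but did not pass (adjusted p = 0.127, and 0.272 without AS5 pool 3), and AS17 read 7.52, 4.64 and 4.33.

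Of 14 ethylene synthesis genes, 0 passed and 5 lay above WT (median 0.20), with 0 below; under median centring 3 lay above. ACS2, the ripening form of ACC synthase, read 9.64, 8.58 and 9.61 in WT and 10.85, 10.53 and 9.86 in AS5 (1.13, adjusted p = 0.329). ACO6, an ACC oxidase, read 5.35, 5.79 and 6.76 in WT and 6.97, 7.54 and 7.03 in AS5 (1.22, adjusted p = 0.285), and its other probe sets differed by 0.81 and 0.93. E8, an oxidase-like ripening gene induced by ethylene, was 0.27 above WT (adjusted p = 0.574), and SAM3, an S-adenosylmethionine synthetase, was 0.61 above it (adjusted p = 0.642). Of 25 genes of ethylene perception and signalling, 0 passed, 2 lay above and 2 below WT, with a median of -0.03. ERF4, a response factor, changed its reading with pool 3: it was 5.13, 5.17 and 6.62 in AS5 against 6.18, 6.44 and 6.60 in WT, which gave -0.77 (adjusted p = 0.569) with pool 3 and -1.26 (adjusted p = 0.0165) without it. The ripening regulators RIN (0.05) and NOR (-0.01) were close to WT, and of 9 ripening transcription factors 0 passed.

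Cell wall genes were mixed: of 43, 0 passed, 6 lay above WT and 2 below, and the median was 0.06. LOC543515, listed as the beta-xylosidase LEXYL2, read 3.59, 3.66 and 3.60 in WT and 4.13, 4.63 and 4.62 in AS5 (0.84 ± 0.15 SE, adjusted p = 0.0798). In AS17 it passed against WT (0.96, adjusted p = 0.0281). TBG5, a beta-galactosidase, read 5.37, 5.55 and 5.28 in WT and 4.92, 4.93 and 4.77 in AS5 (-0.52 ± 0.12 SE, adjusted p = 0.156). The expansins EXPA10 (1.20) and EXPA4 (1.47) and the pectin methylesterase PMEU1 (1.66) also lay above WT, with adjusted p between 0.276 and 0.464. EXPA10 was dim, with 2 WT arrays at background, and read 3.51, 2.29 and 2.21 in AS5. In sucrose, hexose and starch metabolism 0 of 22 genes passed, 1 lay above WT and 2 below, and the median was 0.06. Under both other scalings 0 lay above WT. The AS5 pools spread widely for AI, the vacuolar acid invertase TIV1 that sets the hexose content of ripe fruit. It read 12.36, 12.40 and 12.34 in WT, 12.11, 11.05 and 10.27 in AS5 and 12.19, 11.92 and 12.27 in AS17. The difference of -1.22 ± 0.38 SE did not pass (adjusted p = 0.333) and was -0.79 without pool 3.

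**Figure D5:**
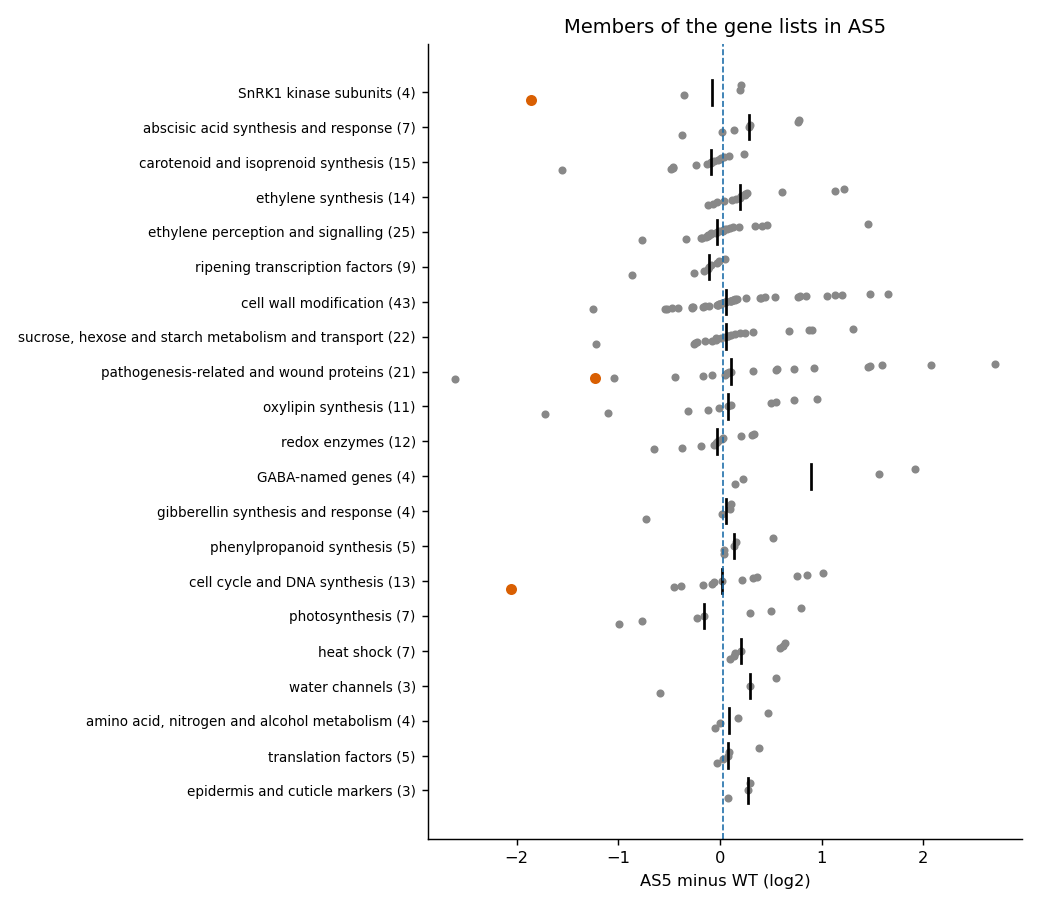
Difference between AS5 and WT (log2, horizontal axis) for each gene of the lists, with 1 point per gene, the number of genes in brackets, a bar at the list median and a dashed line at the median of all probe sets (0.03). Coloured points passed the test: SNF4, NP24-I and P18.

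Among 21 pathogenesis-related and wound proteins, NP24-I fell and the others did not pass, with 5 above WT and 2 below (median 0.11). ER1, an ethylene-responsive proteinase inhibitor, read 8.67, 9.76 and 8.67 in WT and 6.41, 6.69 and 6.19 in AS5 (-2.60 ± 0.61 SE, adjusted p = 0.182), and 6.38, 4.22 and 3.72 in AS17. The chitinases CHI14, CHI17 and CHI3, enzymes that attack fungal cell walls, lay above WT by 0.92, 2.07 and 2.71 (adjusted p of 0.284, 0.382 and 0.495). CHI3 read 6.61, 3.83 and 6.71 in WT and 6.91, 8.60 and 9.77 in AS5, and its difference was 2.04 without AS5 pool 3 (adjusted p = 0.687). CHI14 read 4.18 to 5.06 in WT and 5.17 to 5.81 in AS5, which was also above its 4.47 to 5.01 in AS17, though not after median centring or quantile normalisation. LAPA1, the wound-induced leucine aminopeptidase, lay 1.46 above WT and twi1, a wound-induced glucosyltransferase, 1.48 above.

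Oxylipin enzymes, which turn fatty acids into jasmonate and aroma aldehydes, had 0 of 11 that passed, 0 above WT and 3 below, with a median of 0.08. The lipoxygenase loxC, which feeds the synthesis of short-chain fruit volatiles, read 8.04, 8.23 and 6.81 in WT and 5.87, 6.42 and 5.62 in AS5 (-1.72 ± 0.49 SE, adjusted p = 0.282). TomloxE, another lipoxygenase, read 6.52, 7.61 and 6.62 in WT and 5.73, 6.04 and 5.68 in AS5 (-1.10, adjusted p = 0.429). In AS17 TomloxE passed against WT (-2.11, adjusted p = 0.0423). AOC, allene oxide cyclase of the jasmonate branch, was the third (-0.32). Of 12 redox enzymes 0 passed, and CAT2, a catalase (-0.65, adjusted p = 0.194), and DHAR2, a dehydroascorbate reductase (-0.38), lay below WT. CAT2 passed against WT in AS17 (-1.04, adjusted p = 0.0236).

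In the cell cycle and DNA synthesis list, P18 fell and the other 12 of 13 genes did not pass. CDKA1, the main cyclin-dependent kinase, lay above WT: it read 6.90, 7.30 and 7.79 in WT and 8.40, 7.95 and 8.67 in AS5 (1.01, adjusted p = 0.267). PCNA, the sliding clamp of DNA replication, overlapped WT (-0.46, adjusted p = 0.451). GA3ox1, which makes active gibberellin, lay below WT at 2.07, 1.98 and 2.13 against 2.84, 2.45 and 3.07 (-0.73, adjusted p = 0.182). In AS17 GA3ox1 passed against WT (-0.88, adjusted p = 0.0493). PSBP, a protein of the oxygen-evolving complex of photosystem II, also lay below WT (-0.76, adjusted p = 0.451), and 0 of 7 photosynthesis genes passed. In the list of translation factors 0 of 5 genes passed and eIF-5A1 lay above WT (0.39, adjusted p = 0.349). Of 4 genes with names from gamma-aminobutyric acid (GABA) metabolism, 0 passed and 2 lay above WT, gad2 (1.92, adjusted p = 0.206) and GABA-TP2 (1.56, adjusted p = 0.342). Without AS5 pool 3 their differences were 1.75 (adjusted p = 0.369) and 1.15 (adjusted p = 0.527). The RefSeq table also lists gad2 as GAME11 and GABA-TP2 as GAME12, names used for steps of steroidal glycoalkaloid synthesis, so which role their readings belong to cannot be told from the names.

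The marker lists for other cell types were short. Of 3 epidermis markers, 0 passed. TSW12 was at background on all WT and AS5 arrays, LE16 on 2 WT arrays and 1 AS5 array, and ltpg1, a lipid transfer protein, read 5.22, 4.78 and 5.09 in WT and 4.07, 4.40 and 6.83 in AS5. Its high value was again that of pool 3, and it differed from WT by 0.07 with that pool and -0.79 without it. The vascular marker SUT2, a sucrose transporter, read 4.95 to 5.11 in WT and 5.008 to 5.195 in AS5.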

How the data were processed

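The submitters deposited 1 table of log2 expression values made with RMA, per the submitters' processing notes, a method that corrects background, normalises between arrays and summarises the probes of a set; the sources used here record no other step by the authors. The table held 10209 probe sets, of which 171 were controls and entered no test. Symbols came from the platform annotation, which is old. Of 909 probe sets with a symbol, 885 matched RefSeq genes of the tomato assembly SLM_r2.1, a table used for names only. No build is given for the array, so no coordinates are printed.

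The test was limma 3.58.1 (R 4.3.3; functions lmFit, eBayes) on all 9 arrays with 1 mean per group, so AS17 also informed the variances. Every adjusted p comes from that fit, with Benjamini-Hochberg adjustment over the 10038 probe sets and a threshold of 0.05. Background was the 95th percentile of the 63 reporter control probe sets of an array. A gene with several probe sets was represented by the one with the highest mean. The number of arrays limits the precision.

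The comparison, gene lists, naming rule and alternatives were chosen with earlier results of these data known. The rule picks symbol-carrying probe sets that passed, the 4 widest unnamed rises and 6 widest unnamed falls, calls not made in AS17, up to 10 genes per direction with AS5 outside all other arrays, up to 3 members per list and the 20 named genes with the smallest p. List members that it picks but that are not described above did not pass. Of the 20, h52 (-1.99, adjusted p = 0.234), ME2 (-0.69, 0.241), LOC543971 (0.92, 0.268), LOC543892 (0.46, 0.173) and GS2 (0.47, 0.147) are given only here. GS2 was at background on all WT and AS5 arrays. Lists with at most 2 genes (auxin response, seed, vascular) and those for water channels, phenylpropanoid synthesis, and amino acid, nitrogen and alcohol metabolism had 0 genes that passed in AS5. Lists were matched by symbol, and the ASR family list matched 0 genes. Unnamed probe sets could not be assigned to any list. Alternatives covered scaling, dim probe sets, variance models, pool number as a block, thresholds and leaving out arrays. Deviations of AS5 and WT pools of the same number correlated at 0.18, -0.13 and 0.06. Those of AS5 and AS17 pools correlated at -0.38, 0.55 and 0.02, so no steady pairing by pool number was seen. The code was tested on simulated data. Plots used matplotlib 3.10.9 under Python 3.11.15.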

Additional observations from a re-analysis of the deposited data

Results flagged for a closer look

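The control probe sets for reporter genes, which enter no comparison of the report, read slightly higher in AS5. The background level taken from them was 1.68 log2 in AS5 arrays (mean of 3) and 1.49 in WT arrays. The highest reporter value was 3.27 in AS5 arrays and 3.22 in WT arrays, and in 0 reporter probe sets did all 3 AS5 arrays exceed WT by 1 log2 unit or more. The higher level makes a given value more readily at background in AS5 than in WT, and its part in the results was not tested.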

How the results depend on the processing

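Over 94 named genes and probe sets and all alternatives, 1567 of 1687 values kept their direction and side of the threshold, 72 no longer passed, 25 passed only under an alternative and 23 changed direction. The count of 38 in AS5 minus WT became 42 with median centring, 39 with quantile normalisation, 40 with a variance trend, 58 at an adjusted p under 0.1 and 200 with array weights, which weigh down pools that stand apart. Leaving out 1 array gave 18 to 38. Without AS5 pool 3 and AS17 pool 1 the count was 51, with 32 shared with the 38. With only the 6 AS5 and WT arrays it was 33, of which 10 were higher and 23 lower in AS5. With pool number as a replicate block it was 27, 24 of them shared with the 38, and 1 of 3 AS5 pools correlated best with the WT pool of its number. For AS5 minus AS17 the count was 0 under every alternative except 1 at an adjusted p under 0.1. For AS5 against the mean of WT and AS17, the count of 5 became 8 with median centring, 19 with array weights and 10 at an adjusted p under 0.1, and 4 to 6 leaving out 1 array. The count of 3 passing in AS5 and not in AS17 became 6 with a variance trend, 81 with array weights, 1 with the replicate block, 6 without AS5 pool 3 and AS17 pool 1, 6 at an adjusted p under 0.1, 5 when a difference of at least 1 was also asked, and 1 to 14 leaving out 1 array; the cause was not tested. The changes of direction were of genes that passed under no setting, and for CHS1 and ltpg1 the values moved well away from 0. With array weights MAN2 gave -0.021, CHS2 -0.083, CHS1 -0.48 and ltpg1 -0.56. Without AS5 pool 3 and AS17 pool 1, SNF1 gave -0.037, SUT2 -0.0094, GAI -0.0084, CHS2 -0.017, CHS1 -0.49 and ltpg1 -0.79. Quantile normalisation gave ADH2 0.074 and IAA3 -0.041, and median centring IAA3 -0.028. Leaving out 1 array at a time gave -0.017 to 0.12 for MAN2, -0.037 to 0.38 for SNF1, -0.0094 to 0.084 for SUT2, -0.017 to 0.34 for CHS2, -0.49 to 0.57 for CHS1, -0.20 to 0.18 for IAA3, -0.79 to 0.59 for ltpg1 and -0.0084 to 0.17 for GAI. Counts of AS5 arrays outside all others, and on the other side of WT from AS17, under the scalings were added after seeing the data.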
